A study of Mus musculus with 4 samples.

Results

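The genes described here are 45 genes of the unfolded protein response, the integrated stress response and the heat shock response, out of 35869 genes listed in each sample. They were picked by gene symbol. They fall into 5 branches: 4 stress sensors and transcription factors of the endoplasmic reticulum (ER), 14 ER chaperones and folding enzymes, 3 genes of ER-associated degradation, 11 genes of the ATF4 branch and 13 heat shock genes. RNA-seq was performed on CD45+ cells, which are immune cells, bound to CD45 microbeads from the stromal vascular fraction of the epididymal white adipose tissue (eWAT) of male WT C57BL/6 mice. The mice were fed a normal fat diet (ND, 10% of calories from fat) or a high-fat diet (HFD, 60% of calories from fat) for 12 weeks from 8 weeks of age. There were 2 samples per diet, and the comparison asks how the diet alters gene expression in the immune cells of the fat. The number of mice behind each library is not stated in the sources used here, so the p-values measure only the spread between these samples, which may be technical. CD45 beads enrich cells and do not purify them, and no cell type within the CD45+ fraction was separated.

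Secretory and membrane proteins fold in the ER with the help of chaperones and disulfide isomerases. When unfolded proteins collect there, the sensors IRE1 (gene Ern1), PERK (Eif2ak3) and ATF6 start the unfolded protein response, which raises chaperones and the machinery that removes misfolded proteins for degradation. PERK shares with other kinases the phosphorylation of the translation factor eIF2, the step that defines the integrated stress response, in which most translation slows while the transcription factor ATF4 is made and turns on genes of amino acid supply. The heat shock response, driven by HSF1, raises chaperones of the cytosol and the mitochondria. In adipose tissue macrophages, these responses are studied as part of the reaction to excess lipid in obesity.

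All values are TPM, a gene's share of the reads per length of transcript, scaled to the same total in every sample. Differences are HFD minus ND on the log2(TPM + 1) scale, tested with limma over the 16849 genes that reached 1 TPM in 2 or more samples. A gene is said to have risen or fallen where its Benjamini-Hochberg adjusted p-value over those genes was under 0.05. All 45 stress genes passed the filter on low values, with mean levels from 1.80 TPM (Chac1) to 2338 TPM (Hspa8). The TPM of 1 read per kb of transcript was between 0.0607 and 0.0711 in the 4 samples, which corresponds to approximately 3.75e+07 to 4.68e+07 counted reads. At that depth the weakest of the genes, Chac1, rested on approximately 36.8 to 62.0 reads per sample.

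All 4 pan leukocyte markers were expressed, with sums of 2599 and 2510 TPM under ND against 2019 and 2111 TPM under HFD. Ptprc, the gene of CD45, had 54.5 and 59.4 TPM under ND against 55.3 and 53.7 TPM under HFD, whereas Coro1a (-0.71) and Cd52 (-0.39) fell. The 9 macrophage markers summed to 18984 and 18349 TPM under ND against 15549 and 16411 TPM under HFD, a sum that Lyz2 and the C1q genes dominate. Of the 9, Adgre1 (0.78) and Cd68 (0.86) rose, and Csf1r, C1qa, C1qb and C1qc fell. Markers of several cell types differed between the diets. All 7 markers of lipid-associated macrophages rose, from sums of 1032 and 1081 TPM to 8236 and 8639 TPM. The 6 fibroblast markers summed to 522 and 561 TPM under ND against 2837 and 5686 TPM under HFD, whereas all 5 B cell and all 5 T cell markers measured fell. Also lower were 4 of 4 neutrophil markers tested and 4 of 5 markers of the epididymal epithelium, a secretory tissue, whose sums were 168 and 181 TPM under ND against 13.9 and 32.1 TPM under HFD. All 5 proliferation markers rose, from sums of 57.8 and 59.4 TPM to 153 and 135 TPM. HFD replicate 1 stood apart in spermatid genes, with a sum of 6598 TPM over 7 genes against 1761 to 2029 TPM in the other samples. In bulk RNA, fewer cells of a type and less RNA per cell cannot be told apart, and the part of any of these shifts in the results on stress genes was not tested.

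**Figure D1:**
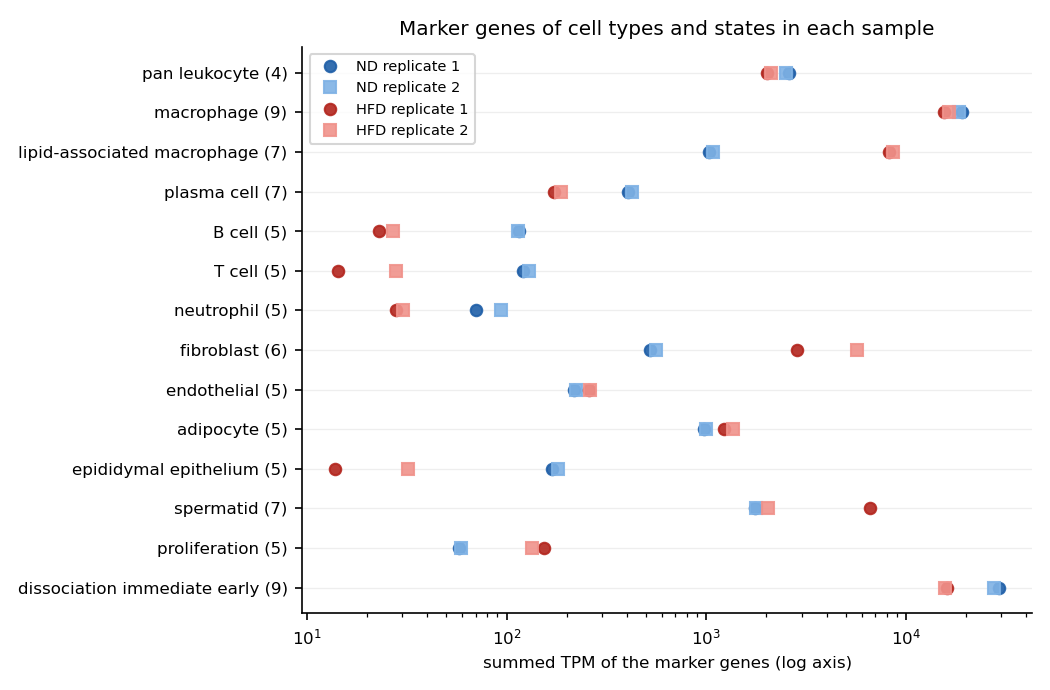
Summed TPM of marker genes (log axis) in each of the 4 samples, with the number of genes per list in parentheses. ND samples are blue and HFD samples red, circles are replicate 1 and squares replicate 2. Lipid-associated macrophage, fibroblast and proliferation sums were higher and immediate early, plasma, B and T cell sums lower in both HFD samples, and HFD replicate 1 alone was high for spermatid genes.

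The 45 genes did not move one way. Of these, 25 (55.6%) passed the test in limma, of which 13 rose and 12 fell in HFD, where 27.3% of all genes tested passed, 13.2% as higher and 14.1% as lower. Strongly expressed genes pass more often, and among all genes whose mean reached 10 TPM the share was 36.2%, with 42 of the 45 stress genes at that level. A change of 1.5-fold or more as well was seen in 7 genes that rose and 10 that fell, against 8.08% and 10.3% of all genes. Both HFD values lay above both ND values for 20 genes, below them for 19, and overlapped them for 6, while 34.1% and 32.8% of all genes lay above and below, or 66.9% without overlap. The median difference over the 45 genes was 0.07, beside 0.06 over all genes tested.

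These calls depended on single libraries and on scaling. With either ND library left out, limma called 0 of 16849 genes in all, with 3862 and 4024 genes at an unadjusted p-value under 0.05 and 20 and 21 of the 45 stress genes among them. The adjusted p-values of the 25 called stress genes were then 0.161 to 0.269, and none of them changed direction. Without HFD replicate 1 the calls on Ern1, Eif2ak3, Hsp90b1, Canx, Dnajb9, Sel1l, Asns and Dnaja1 were lost (adjusted p-values up to 0.0924 in limma), and without HFD replicate 2 those on Ern1, Eif2ak3, Hsp90b1, Canx, Pdia3, Dnajb9, Sel1l and Dnaja1 (up to 0.0898). With median-ratio scaling in place of TPM as deposited, 7 stress genes were higher and 10 lower, and without the filter on low values 6 were higher and 9 lower.

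**Figure D2:**
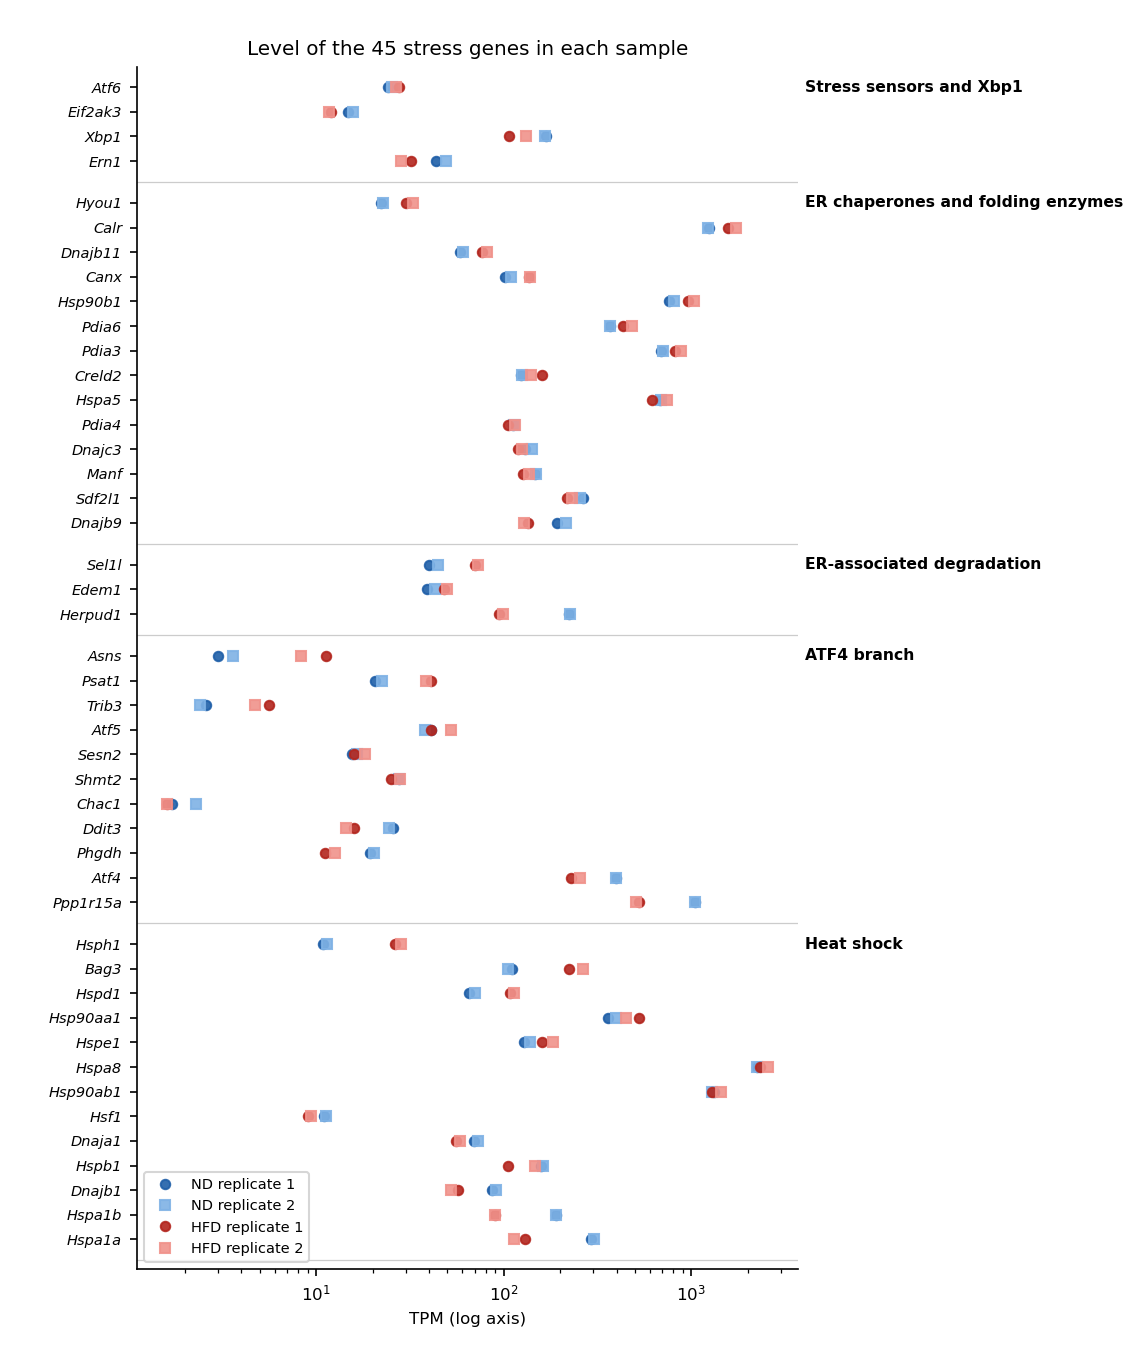
TPM of each of the 45 stress genes (log axis) in the 4 samples, by branch and, within a branch, from the most raised to the most lowered gene in HFD. ND samples are blue and HFD samples red. Replicates of 1 diet lie close together for most genes, and genes of the same branch lie on either side of their ND values.

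**Figure D3:**
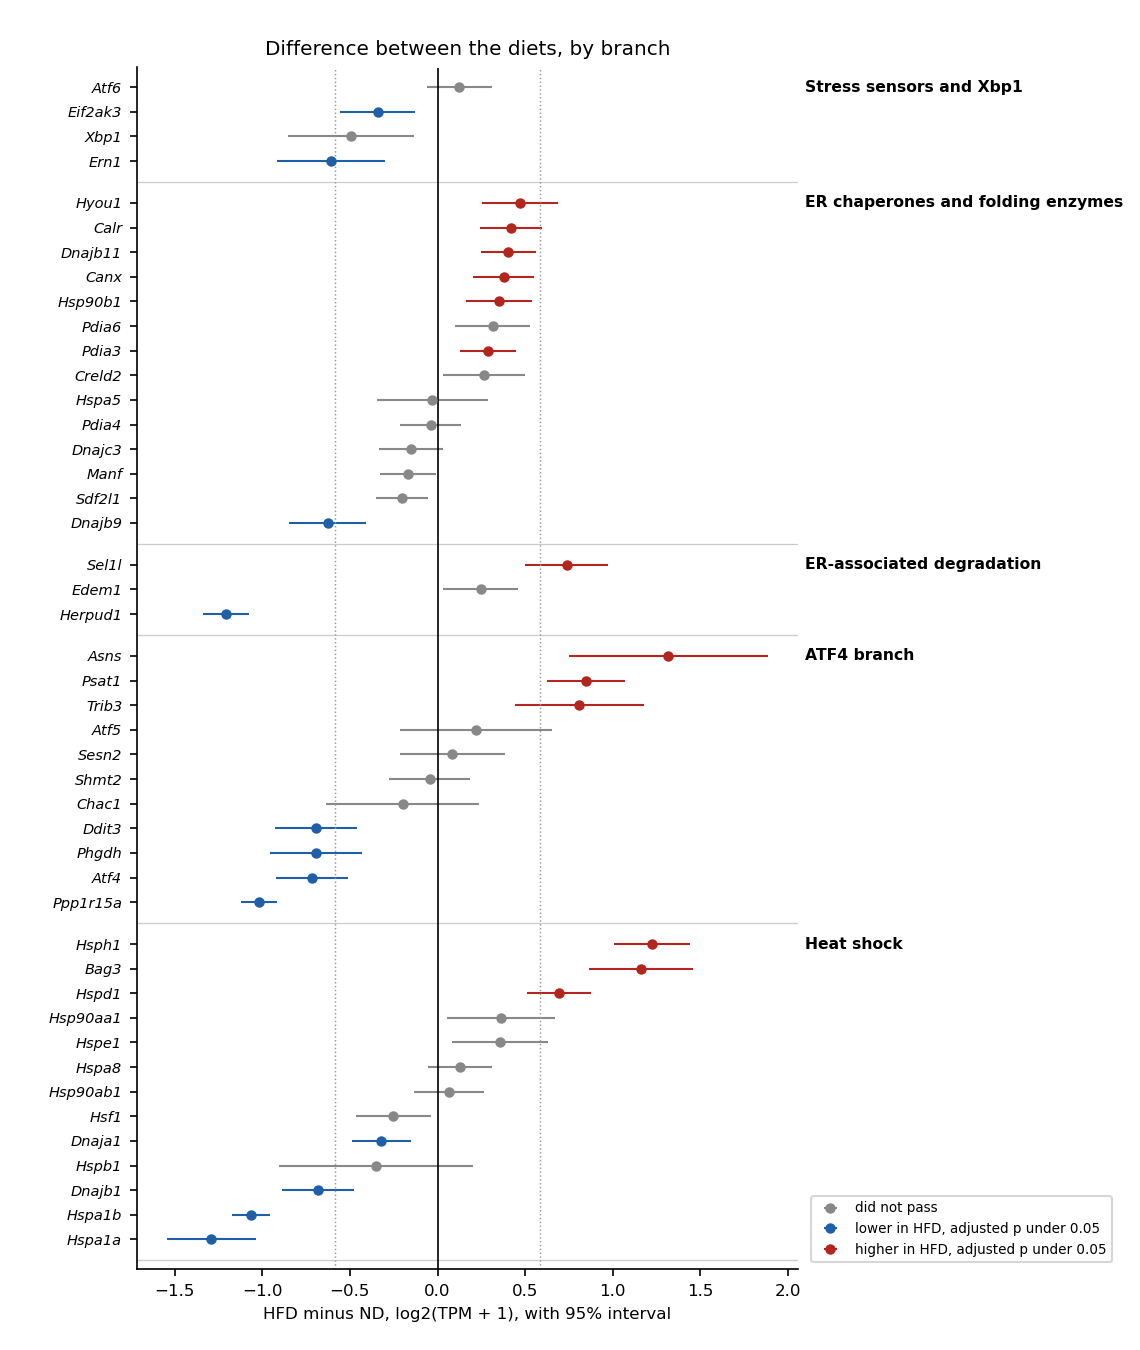
Difference HFD minus ND on the log2(TPM + 1) scale for each gene, with its 95% interval from limma. Red genes rose and blue genes fell at an adjusted p-value under 0.05, grey genes did not pass, and dotted lines mark 1.5-fold. All of the ER chaperones that rose stayed under 1.5-fold, whereas both the ATF4 branch and the heat shock genes held changes beyond it on either side.

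Among the sensors, IRE1 and PERK transcripts fell. Ern1, the gene of the RNase that splices Xbp1 mRNA, lies on chromosome 11 (chr11:106394650-106487852, minus strand, GRCm38). It had 43.8 and 49.0 TPM under ND against 32.0 and 28.2 TPM under HFD, a 1.52-fold decrease (difference -0.61, standard error 0.102, adjusted p = 0.0328 in limma). Eif2ak3, the gene of the eIF2 kinase PERK, had 14.8 and 15.8 TPM under ND against 12.0 and 11.7 TPM under HFD (-0.34, standard error 0.0719, adjusted p = 0.0493 in limma). In both genes each HFD sample lay below each ND sample, as in 32.8% of all genes tested. The call on Eif2ak3 was the closest to the threshold of all 25, and it was lost under 11 of the 14 alternative settings run.

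Xbp1, whose spliced mRNA encodes the transcription factor of the IRE1 arm, had 168.7 and 167.1 TPM under ND against 107.0 and 131.9 TPM under HFD. Both HFD values were lower, but they differed from each other, and the difference of -0.50 did not pass (adjusted p = 0.0654 in limma, 95% interval -0.86 to -0.13). It passed under 5 of the 14 alternative settings. Among them were a filter at a mean of 5 TPM (adjusted p = 0.0484 in limma) and quantile normalization (0.0355). A rescaling added after seeing the data also did (0.0484). The others were the fits without HFD replicate 1 (difference -0.35) and without HFD replicate 2 (-0.65). Those fits take their spread from the ND pair and leave out the gap between the HFD samples. TPM per gene sums the spliced and unspliced forms of Xbp1, so the activity of IRE1 was not measured. Atf6, the gene of the membrane-bound transcription factor of the other arm, had 24.2 and 25.4 TPM under ND against 27.7 and 26.5 TPM under HFD (0.12, adjusted p = 0.239 in limma). Over the 4 genes, 0 rose and 2 fell, with a median of -0.42.

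The ER chaperones and folding enzymes leaned the other way, with 6 of 14 genes higher and 1 lower and a median of 0.28, though no increase reached 1.5-fold. Their TPM summed to 4887 and 4992 in ND and 5508 and 5998 in HFD. The genes that rose were Calr, Canx, Pdia3, Hsp90b1, Hyou1 and Dnajb11. Calr, the gene of the lectin chaperone calreticulin and the most abundant of the branch (chr8:84841850-84846934, minus strand), had 1237.2 and 1225.5 TPM under ND against 1572.4 and 1724.5 TPM under HFD (0.42, standard error 0.059, adjusted p = 0.0239 in limma). Canx, its membrane-bound counterpart calnexin, had 101.3 and 109.8 TPM under ND against 135.8 and 138.8 TPM under HFD (0.38, adjusted p = 0.0287 in limma). Pdia3, the disulfide isomerase that works with both lectins, had 685.9 and 704.1 TPM under ND against 815.9 and 880.2 TPM under HFD (0.29, adjusted p = 0.0398 in limma). In each of these genes the diets did not overlap, as in 66.9% of all genes tested, and the rise was between 1.22-fold and 1.34-fold.

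Hsp90b1, the gene of the ER-resident HSP90 protein GRP94, had 759.6 and 810.0 TPM under ND against 964.2 and 1040.8 TPM under HFD (0.35, standard error 0.0628, adjusted p = 0.0362 in limma). Hyou1, the HSP110 type nucleotide exchange factor of the ER, had 22.1 and 22.7 TPM under ND against 30.0 and 32.9 TPM under HFD (0.47, adjusted p = 0.0281 in limma). Dnajb11, a J-domain cofactor of BiP, had 58.4 and 60.5 TPM under ND against 77.1 and 81.0 TPM under HFD (0.40, adjusted p = 0.0209 in limma). The calls on these modest rises depended on scaling and on other settings of the test. On the deposited scale 1 of the 6 genes passed without the filter on low values and 3 without the variance trend. With the replicate number as a block 0 passed. Rescaled without the 50 most abundant genes, 4 passed. With median-ratio scaling 0 of the 6 genes passed (adjusted p-values 0.0805 to 0.23 in limma) and 3 had an unadjusted p-value under 0.05. Their differences were then 0.25 to 0.44, beside 0.29 to 0.47 on the deposited scale, while the standard errors went from between 0.0528 and 0.0726 to between 0.0941 and 0.14. With quantile normalization the branch split into 4 genes higher and 4 lower. Fibroblasts secrete much collagen through the ER, and 4 of the 6 fibroblast markers rose beside these genes. The part of these cells in the rises was not tested.

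Hspa5, the gene of BiP and the usual readout of ER stress, was not among the genes of the branch that rose. It had 685.6 and 693.8 TPM under ND against 616.1 and 740.3 TPM under HFD, so that the HFD samples lay on either side of both ND samples (-0.03, 95% interval -0.35 to 0.29, adjusted p = 0.853 in limma). The sign turned without HFD replicate 1, to 0.10. Dnajb9, the BiP cofactor ERdj4 and a target of XBP1, was the single gene of the branch that fell, from 192.8 and 214.6 TPM under ND to 134.6 and 128.2 TPM under HFD (1.54-fold, -0.63, standard error 0.0739, adjusted p = 0.0177 in limma). The other 6 genes of the branch (Pdia4, Pdia6, Dnajc3, Sdf2l1, Manf and Creld2) did not pass, with differences from -0.20 for Sdf2l1, a cofactor of BiP complexes, to 0.31 for the disulfide isomerase Pdia6 (367.3 and 367.0 TPM in ND, 431.2 and 483.9 TPM in HFD, adjusted p = 0.057).

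Many ER chaperone genes carry a known response element at their promoters. The ER stress response element (ERSE, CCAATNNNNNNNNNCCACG, searched on both strands) is known to be bound by NF-Y and ATF6. It was found within 250 bases before to 50 after a RefSeq start (GRCm38.p6) in 7 of the 12 ER chaperone genes with a promoter window (58.3%) and in 37 of all 27025 genes (0.137%), and in none of the windows of the other branches. The element was defined from promoters of such genes, so these shares describe the branch and test nothing. Its 8 occurrences are shown because genes that rose and genes that did not pass carry the same element. Capitals mark the fixed letters, and each is written along the strand that reads CCAAT first, with 6 bases on either side.
Calr: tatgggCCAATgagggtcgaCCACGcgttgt
Canx: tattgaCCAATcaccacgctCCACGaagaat
Hsp90b1 upstream copy: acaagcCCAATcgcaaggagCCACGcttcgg
Hsp90b1 downstream copy: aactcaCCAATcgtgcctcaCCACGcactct
Hspa5: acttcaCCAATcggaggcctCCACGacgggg
Pdia6: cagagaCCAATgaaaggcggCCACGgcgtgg
Dnajc3: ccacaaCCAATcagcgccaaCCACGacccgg
Creld2: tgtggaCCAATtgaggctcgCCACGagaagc

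The elements begin between 65 bases (Hspa5) and 212 bases (Hsp90b1) before the start. They lie at chr8:84847075-84847093 for Calr, chr11:50325800-50325818 for Canx, chr10:86705638-86705656 and chr10:86705533-86705551 for Hsp90b1, chr2:34772025-34772043 for Hspa5, chr12:17266491-17266509 for Pdia6, chr14:118937827-118937845 for Dnajc3 and chr15:88819520-88819538 for Creld2. Of these 7 genes, Calr, Canx and Hsp90b1 rose in HFD, and Hspa5, Pdia6, Dnajc3 and Creld2 did not pass, with Dnajc3, the PERK inhibitor p58IPK, at 130.6 and 141.2 TPM under ND against 119.8 and 124.7 TPM under HFD. The window of Hspa5 is given whole (chr2:34771840-34772139, plus strand), with its ERSE in capitals.
Hspa5: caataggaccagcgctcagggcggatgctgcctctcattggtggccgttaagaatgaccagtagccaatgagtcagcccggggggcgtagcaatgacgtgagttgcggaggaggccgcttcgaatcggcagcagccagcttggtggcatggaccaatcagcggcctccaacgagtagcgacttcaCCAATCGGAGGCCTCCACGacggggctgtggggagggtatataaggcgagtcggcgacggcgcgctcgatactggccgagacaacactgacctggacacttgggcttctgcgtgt

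The genes of ER-associated degradation, which sends misfolded ER proteins back to the cytosol for the proteasome, moved in opposite directions. Herpud1, the gene of a small membrane protein that organizes the degradation complex (chr8:94386438-94395377, plus strand), had 223.7 and 225.4 TPM under ND against 94.4 and 98.8 TPM under HFD. This 2.31-fold decrease (-1.21, standard error 0.0439, adjusted p = 0.00449 in limma) was large beside the gap between replicates of either diet. Sel1l, the adaptor of the same ubiquitin ligase complex (chr12:91806043-91849157, minus strand), rose from 40.0 and 44.9 TPM under ND to 70.0 and 72.6 TPM under HFD (1.67-fold, 0.74, standard error 0.0785, adjusted p = 0.0149 in limma). The remaining gene, the mannosidase-like Edem1, had 39.1 and 43.1 TPM under ND against 48.1 and 49.7 TPM under HFD and did not pass (0.25, adjusted p = 0.0904 in limma). A median over such a branch, here 0.25, describes neither gene.

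Herpud1 holds 2 different stress elements, and its window is shown for that reason (chr8:94386179-94386478, plus strand, GRCm38.p6). Capitals mark, in order, a C/EBP-ATF response element (CARE, TGATGNAA, the type of site that ATF4 binds) that reads on the opposite strand, and an ERSE-II (ATTGGNCCACG) 52 bases before the start.
Herpud1: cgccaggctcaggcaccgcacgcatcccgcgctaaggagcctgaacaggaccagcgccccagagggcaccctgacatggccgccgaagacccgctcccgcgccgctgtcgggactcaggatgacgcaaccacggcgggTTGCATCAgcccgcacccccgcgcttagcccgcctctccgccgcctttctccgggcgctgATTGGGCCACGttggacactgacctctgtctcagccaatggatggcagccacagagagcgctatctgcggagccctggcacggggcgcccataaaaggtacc
ERSE-II was found in 12 of the 27025 genes (0.0444%), and among the 38 stress genes with a window the other was Dnajb11 (chr16:22857852-22857862), where it starts 7 bases after the start of the gene.
Dnajb11: gcggcgATTGGcCCACGcctggc
Thus of the 2 genes with this element, Dnajb11 rose and Herpud1 fell. The unfolded protein response element TGACGTGG was in 193 of all genes (0.714%) and in 0 of the 38 windows.

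In the ATF4 branch, the transcription factors ATF4 and CHOP and the phosphatase subunit that ends the response fell, whereas enzymes of amino acid synthesis went both ways. Of 11 genes 3 rose and 4 fell, all 7 by at least 1.5-fold, with a median of -0.05. Atf4 itself (chr15:80255184-80257541, plus strand) had 396.9 and 397.7 TPM under ND against 228.2 and 254.6 TPM under HFD (1.65-fold lower, -0.72, standard error 0.0686, adjusted p = 0.0126 in limma). Its protein is controlled mainly at translation, so the mRNA does not measure ATF4 activity. Ddit3, the gene of the transcription factor CHOP (chr10:127290774-127296288, plus strand), had 25.8 and 24.5 TPM under ND against 15.9 and 14.5 TPM under HFD (1.61-fold lower, -0.69, standard error 0.0784, adjusted p = 0.0166 in limma). Atf5, a further factor of the same family, had 40.9 and 38.1 TPM under ND against 40.9 and 52.2 TPM under HFD, and the diets overlapped (0.22, adjusted p = 0.341 in limma).

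Ppp1r15a encodes GADD34, the subunit that directs a phosphatase to eIF2 and so restores translation. It was the most abundant transcript of the branch, with 1052.9 and 1047.3 TPM under ND against 524.9 and 509.9 TPM under HFD. The decrease of 2.03-fold (-1.02, standard error 0.0342, adjusted p = 0.00449 in limma) had the smallest standard error of the 45 genes. Its start region (chr7:45526219-45526518, minus strand) holds a cAMP response element (CRE, TGACGTCA) that begins 12 bases before the start, in capitals here, and is shown because no other stress gene has this element in its window, while 549 of all genes (2.03%) do.
Ppp1r15a: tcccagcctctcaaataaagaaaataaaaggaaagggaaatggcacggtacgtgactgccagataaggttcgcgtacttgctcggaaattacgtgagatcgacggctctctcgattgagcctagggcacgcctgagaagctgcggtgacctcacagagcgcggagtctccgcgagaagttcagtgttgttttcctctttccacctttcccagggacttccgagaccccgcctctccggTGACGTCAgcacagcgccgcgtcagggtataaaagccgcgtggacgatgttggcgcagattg
Ppp1r15a, Atf4 and Ddit3 are also read as early genes of acute stress. The 9 immediate early genes that tissue dissociation is known to raise, which include Fos, Jun and Atf3, all fell beside them, from summed levels of 29156 and 27692 TPM under ND to 16064 and 15718 TPM under HFD. Jun went from 2045.4 and 1987.9 TPM to 716.3 and 659.2 TPM. The part of cell isolation in the lower stress genes was not tested.

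Asns, the gene of asparagine synthetase (chr6:7675169-7693254, minus strand), showed the largest increase of the 45 genes on this scale. It had 3.0 and 3.6 TPM under ND against 11.3 and 8.3 TPM under HFD (2.49-fold on the TPM + 1 scale, 1.32, standard error 0.19, adjusted p = 0.0249 in limma), or approximately 117 and 162 reads under ND and 499 and 319 reads under HFD. Psat1, the aminotransferase of serine synthesis (chr19:15904678-15947337, minus strand), rose from 20.7 and 22.5 TPM to 40.9 and 38.5 TPM (1.80-fold, 0.85, standard error 0.0742, adjusted p = 0.0111 in limma). Phgdh, the dehydrogenase that opens the same pathway (chr3:98313170-98339990, minus strand), fell from 19.4 and 20.3 TPM to 11.2 and 12.6 TPM (1.62-fold, -0.69, standard error 0.0881, adjusted p = 0.02 in limma). Neighboring steps of serine synthesis therefore differed in direction. The diets did not overlap in either gene, as in 66.9% of all genes tested. Of the 50-base stretches of Phgdh transcripts, 47.8% also occur in other genes, mostly pseudogenes, so its reads may have been split and its level is uncertain.

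Trib3, a pseudokinase that restrains ATF4 and is itself raised by it, was low and rose from 2.6 and 2.4 TPM under ND to 5.6 and 4.7 TPM under HFD (1.75-fold on the TPM + 1 scale, 0.81, standard error 0.122, adjusted p = 0.0271 in limma). The pseudocount understates the change of genes this low. Chac1, a glutathione-degrading enzyme, Sesn2, a leucine sensor of the mTORC1 pathway, and Shmt2, the mitochondrial serine hydroxymethyltransferase, did not pass, with differences of -0.20, 0.08 and -0.05. Chac1 stood at 1.7 and 2.3 TPM under ND against 1.6 and 1.6 TPM under HFD, where a difference of modest size was not detectable (95% interval -0.64 to 0.24).

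A CARE was found in the windows of Asns, Trib3 and Chac1, 3 of the 11 genes of the branch (27.3%), as in 1219 of all genes (4.51%), and in the stress list also in Herpud1. The sites are shown in the direction that reads TGATG, at chr6:7693225-7693232 for Asns, chr2:152344039-152344046 for Trib3, chr2:119351049-119351056 for Chac1 and chr8:94386317-94386324 for Herpud1.
Asns: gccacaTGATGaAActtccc
Trib3: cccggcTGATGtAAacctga
Chac1: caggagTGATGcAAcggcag
Herpud1: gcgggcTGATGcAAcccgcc
The letters of the element were thus present in 2 genes that rose, in 1 that fell and in 1 that did not pass. A match of letters is a description and does not show that a factor bound there.

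**Figure D4:**
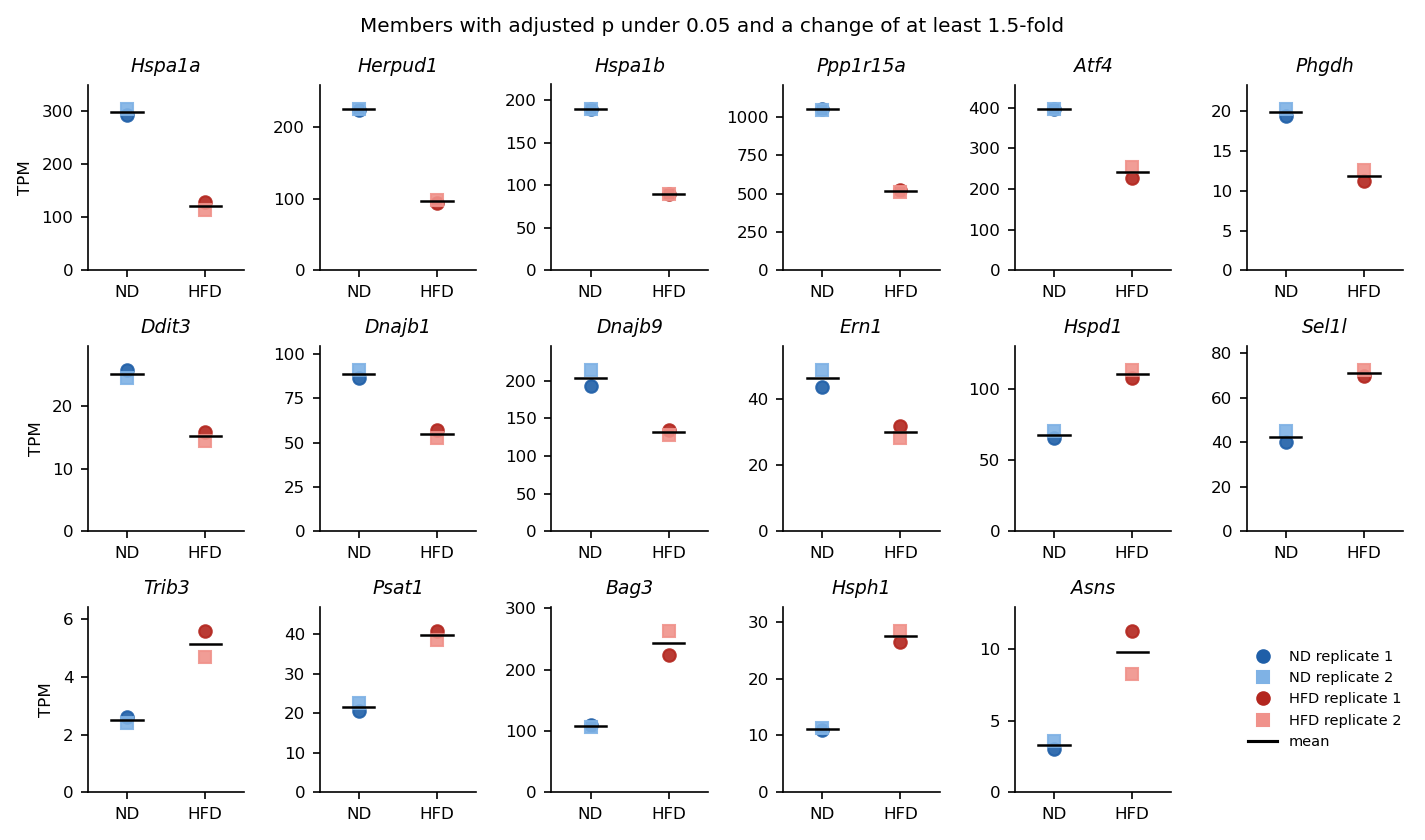
TPM in each sample of the 17 stress genes that passed the test in limma and changed 1.5-fold or more, from the most lowered (Hspa1a) to the most raised (Asns). Blue points are ND and red points HFD samples, black lines are means of 2 samples, and every axis starts at 0. The 2 replicates of a diet lie closer to each other than to the other diet in each panel, which choosing genes by this test favors.

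The heat shock genes also went both ways. Of 13 genes, Hsph1, Bag3 and Hspd1 rose (3) and Hspa1a, Hspa1b, Dnajb1 and Dnaja1 fell (4), with a median of 0.07. Hspa1a, one of a pair of genes for the stress-inducible HSP70 (chr17:34969190-34972156, minus strand), had 291.9 and 304.1 TPM under ND against 129.5 and 113.2 TPM under HFD (2.45-fold lower, -1.29, standard error 0.0847, adjusted p = 0.00761 in limma). Hspa1b, its neighboring copy (chr17:34956436-34959238, minus strand), had 189.6 and 189.4 TPM under ND against 90.2 and 89.8 TPM under HFD (2.09-fold lower, -1.07, standard error 0.0366, adjusted p = 0.00449 in limma). Both fell with no overlap, as 66.9% of all genes tested had none, but they are not independent measurements. The copies share 58.8% of the 50-base stretches of Hspa1a, so reads could be split between them. Their promoter windows are identical at all but 4 of 300 bases.

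Dnajb1, the gene of the J-domain partner HSP40 (chr8:83608193-83612653, plus strand), had 86.2 and 91.0 TPM under ND against 57.3 and 52.5 TPM under HFD (-0.68, standard error 0.0694, adjusted p = 0.014 in limma). Dnaja1, a further HSP40 protein, fell less, from 69.7 and 73.1 TPM to 55.5 and 58.4 TPM (-0.32, adjusted p = 0.0353 in limma). The call on Dnaja1 was lost under 8 of the 14 alternative settings, with median-ratio scaling (adjusted p = 0.0932 in limma) and with any library left out among them. They fell beside the immediate early genes given above. Hsf1, the gene of the factor that drives the heat shock response, had 11.0 and 11.3 TPM under ND against 9.0 and 9.4 TPM under HFD, a difference of -0.25 that did not pass (adjusted p = 0.088 in limma).

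Hsph1, the gene of the HSP110 nucleotide exchange factor of HSP70 (chr5:149614287-149636376, minus strand), moved against its partner. It had 10.9 and 11.4 TPM under ND against 26.4 and 28.4 TPM under HFD (2.34-fold higher, 1.22, standard error 0.073, adjusted p = 0.00672 in limma). Bag3, a cofactor that couples HSP70 to selective autophagy (chr7:128523616-128546981, plus strand), rose from 110.3 and 105.8 TPM to 223.6 and 263.4 TPM (2.23-fold, 1.16, standard error 0.0998, adjusted p = 0.0108 in limma). Hspd1, the mitochondrial chaperonin HSP60 (chr1:55077835-55088243, minus strand), had 65.5 and 70.2 TPM under ND against 107.6 and 113.2 TPM under HFD (1.62-fold higher, 0.69, standard error 0.0612, adjusted p = 0.0112 in limma). Its partner Hspe1, the mitochondrial HSP10, had 128.3 and 138.0 TPM under ND against 159.4 and 182.7 TPM under HFD and did not pass (0.36, adjusted p = 0.0731 in limma). Both HFD values were above both ND values in each of these 4 genes, as in 34.1% of all genes tested.

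Hspd1 and Hspe1 are read in opposite directions from a shared start region, which holds the heat shock element GAANNTTCNNGAA on both strands in overlapping copies. The window of Hspe1 is printed for that reason (chr1:55087898-55088197, plus strand, GRCm38.p6), with the overlapping elements in capitals.
Hspe1: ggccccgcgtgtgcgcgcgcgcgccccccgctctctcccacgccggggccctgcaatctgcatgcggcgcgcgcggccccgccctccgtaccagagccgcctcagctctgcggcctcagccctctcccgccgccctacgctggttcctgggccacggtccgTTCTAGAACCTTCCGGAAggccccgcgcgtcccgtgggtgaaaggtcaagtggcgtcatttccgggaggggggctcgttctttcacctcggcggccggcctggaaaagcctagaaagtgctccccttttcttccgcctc
The remaining match among the heat shock genes was in Hsph1 (chr5:149636288-149636300), on the opposite strand and 36 bases after a start.
Hsph1: aGAActTTCcaGAAtctgca
The element was in 3 of the 9 heat shock genes with a window (33.3%) and in 179 of all genes (0.662%). Of the genes that hold it, Hspd1 and Hsph1 rose. Its letters were not in the windows of Hspa1a and Hspa1b, which says only that this arrangement is not within those 300 bases.

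The constitutive chaperones were the most abundant of the heat shock genes, and their differences did not pass. Hspa8, the constitutive HSP70 of the cytosol, had 2230.9 and 2229.9 TPM under ND against 2325.8 and 2564.7 TPM under HFD (0.13, 95% interval -0.05 to 0.31, adjusted p = 0.211 in limma). Hsp90ab1, the constitutive HSP90, had 1317.6 and 1297.7 TPM under ND against 1297.2 and 1443.4 TPM under HFD (0.07, 95% interval -0.13 to 0.26, adjusted p = 0.526 in limma). The inducible Hsp90aa1 had 360.6 and 395.1 TPM under ND against 524.7 and 450.5 TPM under HFD and did not pass (0.36, adjusted p = 0.0868 in limma). Hspb1, the small heat shock protein HSP25, varied most of the heat shock genes between the HFD samples, with 158.4 and 161.2 TPM under ND against 106.0 and 147.3 TPM under HFD (-0.35, adjusted p = 0.253 in limma). Between 38.6% and 48.8% of the 50-base stretches of Hspa8, Hspd1, Hsp90aa1 and Hspb1 occur in other genes as well, so the levels of these genes are uncertain in the same way.

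A further 128 genes of the same pathways, also listed by role, showed how far these patterns reached. Of 120 tested, 35 rose (29.2%) and 3 fell (2.50%), or 31.7% called, where 13.2% of all genes rose, 14.1% fell and 27.3% were called. The counts were 18 and 3 with median-ratio scaling, 18 and 9 with quantile normalization and 29 and 4 without the 50 most abundant genes. The median over these genes was 0.20 as deposited and 0.16, 0.09 and 0.14 under these scalings. The cytosolic chaperonin TRiC, which folds actin and tubulin, had 5 of 8 subunits higher and 0 lower (median 0.39), with differences of 0.51 for Cct6a, 0.46 for Cct3 and 0.41 for Cct7. Other HSP70, HSP110 and HSP40 genes had 5 of 13 higher and 0 lower (median 0.37), led by Hspa13 (0.67), Dnaja2 (0.54) and the mitochondrial HSP70 gene Hspa9 (0.44). This list holds Hspa1l, Hspa2, Hspa4l and Dnaja4, which were high in HFD replicate 1 alone, and without them its median was again 0.37, over 9 genes. HSP90 and its cochaperones had 4 of 15 higher and 0 lower (median 0.25), among them the HSP90 activator Ahsa1 at 0.65, St13 at 0.40 and the mitochondrial Trap1 at 0.31. Bag5 was likewise high in HFD replicate 1 alone, and without it the median was 0.18. Over these 36 genes 14 rose (38.9%) and 0 fell, none of them by as much as Hsph1. With median-ratio scaling 6 rose and 0 fell, with quantile normalization 8 rose and 1 fell, and without the 50 most abundant genes 13 rose and 0 fell. Their median was 0.33 as deposited and 0.29, 0.21 and 0.27 under these scalings.

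In the ER, 4 of 24 other folding and glycoprotein genes rose (16.7%, beside 13.2% of all genes) and 0 fell (median 0.17). With median-ratio scaling 1 rose, and with quantile normalization 2 rose and 2 fell. Among the 4 were Srp54a of the signal recognition particle at 0.51, the disulfide isomerase P4hb at 0.40 and the glucosidase subunit Prkcsh at 0.40. Of 21 other genes of ER-associated degradation and stress transduction, 6 rose (28.6%) and 1 fell (4.76%), with a median of 0.18. The shares over all genes were 13.2% and 14.1%. With median-ratio scaling 4 rose and 1 fell, and with quantile normalization 3 rose and 1 fell (median 0.08). Without the 50 most abundant genes 5 rose and 1 fell. Mbtps2, the protease that releases ATF6, rose by 0.77, and Vcp, the ATPase that pulls proteins out of the ER, rose from 326.7 and 331.5 TPM to 472.4 and 488.1 TPM (0.54). Derl3, the derlin of secretory cells, fell by 0.87, from 3.0 and 2.7 TPM to 1.1 and 1.1 TPM. Derl3 is also one of the plasma cell markers, of which 5 of 7 fell, Jchain from 285.5 and 298.4 TPM to 22.5 and 39.5 TPM, while Sdc1 and Prdm1 rose. Plasma cells are known for high IRE1 and XBP1 activity, and the part of their lower markers in the fall of Ern1 was not tested.

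Around eIF2 and ATF4, the picture was again mixed. Among 11 other regulators of the integrated stress response 1 rose and 1 fell (9.09% each, beside 13.2% and 14.1% of all genes), with a median of -0.18. With quantile normalization 1 rose and 4 fell (median -0.26). Eif2s1, the eIF2 subunit that carries the phosphorylation site, rose by 0.65, and Atf3, a transcription factor induced by ATF4 and by acute stress, fell from 2141.1 and 2105.2 TPM to 1201.9 and 1068.2 TPM (-0.91). Of 10 other metabolic targets of ATF4 that were tested, 2 rose and 1 fell. Gpt2, a mitochondrial alanine aminotransferase, rose from 13.1 and 13.0 TPM to 30.9 and 45.6 TPM (1.46), and Gdf15, a secreted stress cytokine, from 76.7 and 71.3 TPM to 133.1 and 147.1 TPM (0.91). The amino acid transporter Slc7a5 fell by 0.35. The aminoacyl-tRNA synthetases, which charge tRNAs and are known ATF4 targets in part, had 7 of 12 genes higher and 0 lower (median 0.33), with Eprs at 0.62, Cars at 0.52 and Aars at 0.49. With median-ratio scaling 3 of the 12 rose (median 0.30), with quantile normalization 1 (0.23), and without the 50 most abundant genes 5 rose and 1 fell (0.27).

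Among the small heat shock proteins and the collagen chaperone, 1 of 6 genes tested rose (16.7%, beside 13.2% of all genes). Hspb7, a small heat shock protein best known from muscle, had 4.6 and 4.2 TPM under ND against 44.1 and 37.2 TPM under HFD (2.94, adjusted p = 0.00482 in limma). Serpinh1, the collagen chaperone HSP47, had 18.2 and 18.3 TPM under ND against 40.4 and 75.3 TPM under HFD and did not pass (1.55, adjusted p = 0.0545). The HFD samples were unequal for Serpinh1 in the same order as for the fibroblast markers. The link between them was not tested.

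**Figure D5:**
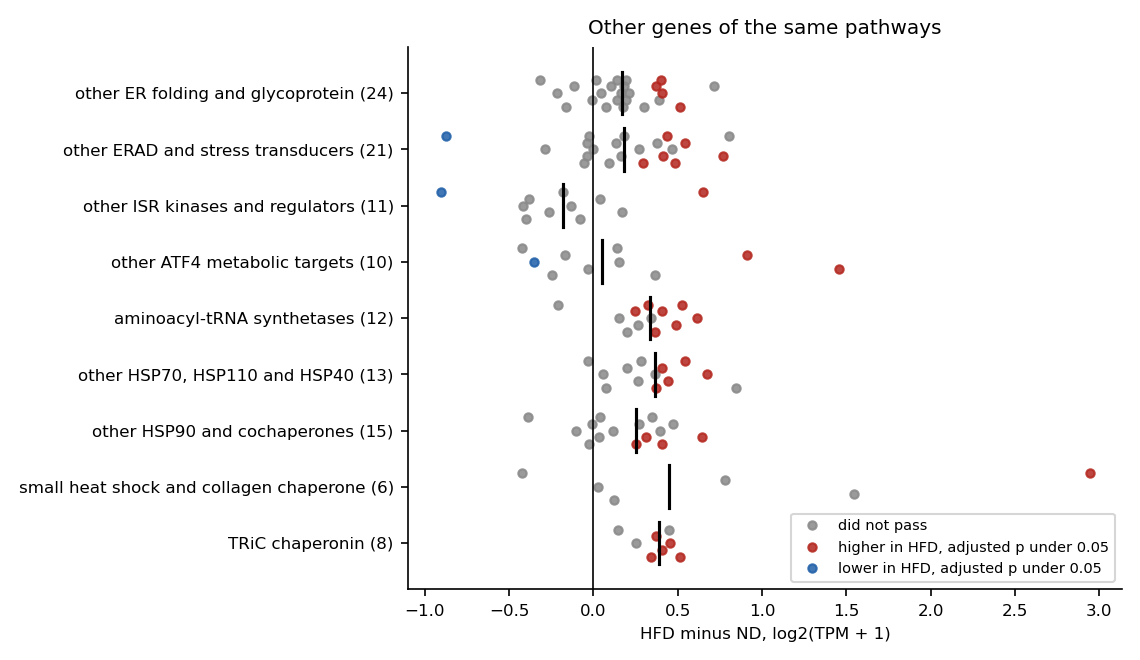
Difference HFD minus ND on the log2(TPM + 1) scale for 120 other genes of the same pathways, by list, with the number of genes tested in parentheses. Each point is 1 gene, red rose, blue fell and grey did not pass at an adjusted p-value of 0.05, and black bars are list medians. The TRiC subunits all lie above 0, and genes that fell are found in the degradation, integrated stress response and ATF4 lists.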

How the data were processed

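Per the labels and the study's methods, the authors prepared stranded mRNA libraries, trimmed reads with Trim Galore 0.4.2 and cutadapt 1.9.1, aligned them to mm10 with STAR 2.6.1e, removed duplicates, counted reads per gene with featureCounts 1.6.2 (versions from the submitters' processing notes) and deposited TPM per gene and sample, to 1 decimal. The annotation and the use of strand in counting are not given in the sources used here. Removing duplicates can compress the levels of abundant genes, and TPM are shares, so a gene can fall because others rise.

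Values were compared as log2(TPM + 1) in R 4.3.3 with limma 3.58.1 (variance trend, 2 ND against 2 HFD, Benjamini-Hochberg adjustment) over 16849 genes that reached 1 TPM in 2 or more samples. An exact permutation test of 2 against 2 cannot go below p = 0.333. The steps were tested on simulated data. Figures used matplotlib 3.10.9 in Python 3.11.15.

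The members and all gene lists were chosen with earlier results of these data known. Values in every sample were to be given for called members with a change of at least 1.5-fold, the sensors and transcription factors, and the 2 most abundant genes per branch. Of other pathway genes, up to 3 called genes per list were named. The remaining genes shown with values, such as Hspa5 and Serpinh1, were added after their values were seen.

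Gene positions, exon lengths and shared 50-base stretches came from GENCODE vM21 (GRCm38), and read numbers from the smallest step of short genes' TPM. Promoter windows (250 bases before to 50 after a start) came from RefSeq, GRCm38.p6, for 38 of the 45 genes. Intervals for read numbers were not given, and duplicates make reads an imperfect count of molecules.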

Additional observations from a re-analysis of the deposited data

How the results depend on the processing

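The genes were recomputed under 14 alternatives, or 13 for Trib3 and Chac1, which did not reach a mean of 5 TPM, and 0 of the 25 called genes changed direction. Of the 20 others, 5 did. With each library left out in turn, Hspa5 ranged from -0.16 to 0.10, Pdia4 from -0.096 to 0.016 and Shmt2 from -0.12 to 0.030, each above 0 without HFD replicate 1, and Sesn2 from -0.012 to 0.18 and Hsp90ab1 from -0.012 to 0.14, each below 0 without HFD replicate 2. Of the 20 genes that did not pass, 10 passed under at least 1 alternative, most often Xbp1 (5) and Pdia6 (4). The deviations of ND replicate 1 and HFD replicate 1 from their diet means had a correlation of -0.015 over the 16849 genes. With 2 samples per diet this cannot show whether samples of the same number were paired. With the number as a replicate block, limma called 812 genes in all, 1 stress gene higher and 4 lower. Stress genes called higher numbered 6 without the filter on low values, 7 with median-ratio scaling and 7 where a change of 1.5-fold or more was asked as well. With each library left out in turn, the genes called ranged from 0 to 5695 in all, and the stress genes from 0 to 11 higher and 0 to 11 lower. In each of these fits the diet left with 1 sample is assumed to vary like the other, so the fits without an HFD library take their spread from the ND pair. The cause of these losses was not tested.

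The branch medians kept their sign except the ATF4 branch without HFD replicate 1 (0.03) and the heat shock genes without HFD replicate 2 (-0.01). The sensors moved to -0.52 with quantile normalization and -0.48 without the 50 most abundant genes, the ER chaperones to 0.24 with median-ratio scaling, 0.18 with quantile normalization and 0.21 without those 50 genes, ER-associated degradation to 0.13, the ATF4 branch to -0.15 and the heat shock genes to 0.17 with quantile normalization. With libraries left out, the sensors ranged from -0.44 to -0.35 and the ER chaperones from 0.23 to 0.29. An alternative added after seeing the data, rescaling without the 1358 genes that HFD replicate 1 had 2-fold or more above its fellow HFD sample, gave 15 stress genes higher and 12 lower. Leaving Hspa1l, Hspa2, Hspa4l, Dnaja4 and Bag5 out of the other pathway lists was also chosen after seeing the data. The depth limits Chac1, Trib3 and Asns most.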

Other observations

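Chaperone genes known from male germ cells set HFD replicate 1 apart from the other 3 samples. Hspa1l, an HSP70 gene strongly expressed in testis, had 35.4 and 37.8 TPM under ND against 125.8 and 35.0 TPM under HFD. Hspa2, the HSP70 of spermatogenesis, had 24.6 and 26.1 TPM under ND against 47.6 and 14.8 TPM under HFD. Hspa4l, Dnaja4 and the cochaperone Bag5 were likewise highest in HFD replicate 1, at 24.6, 12.5 and 26.3 TPM against 10.8, 6.0 and 11.4 TPM in HFD replicate 2. All 5 were lower in HFD replicate 2 than in either ND sample. The 7 spermatid markers had the same sample on top, with a sum of 6598 TPM against 2029 TPM in HFD replicate 2. Where these transcripts came from was not tested, and none of the 5 is among the 45 stress genes. All 5 are among the 120 other pathway genes tested. The remaining 115 held the same 35 higher and 3 lower genes, with a median of 0.19.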
